A study of Saccharomyces cerevisiae with 4 samples.

Results

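The small subunit processome is the particle that yeast builds on new ribosomal RNA in the nucleolus to make the 18S rRNA of the small ribosomal subunit. Here its protein factors are followed through 37 genes, out of 6209 in the table of counts. They are most of the genes named UTP (UTP10 and UTP20 are not among them), PWP2, DIP2 and NAN1, the proteins of the U3 small nucleolar ribonucleoprotein (U3 snoRNP), and IMP3, IMP4, MPP10, SOF1, BFR2, NOP14, NOC4, EMG1, KRR1, BUD21, SAS10, BMS1 and RCL1. They were chosen by name and function, though with earlier results of these data already known. All 37 were among the 5937 genes that passed the filter on low counts, and each had at least 280 reads in every library.

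The cells were BY4741, a haploid laboratory strain of Saccharomyces cerevisiae of mating type a with his3, leu2, met15 and ura3 mutations, in YPD medium at 28 °C. Thiolutin, a sulfur-containing antibiotic used to inhibit RNA polymerases in yeast, was given at 3 µg/mL for 3 h, and untreated cultures of the same strain were the control. 2 libraries of RNA selected by its poly(A) tail were analysed per group, and the comparison asks how the transcripts of processome factors differ after the drug. The notes on design give 3 replicates per condition, and the paper harvested overnight cultures where the labels give exponential growth.

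The U3 snoRNA pairs with the ribosomal precursor and holds it open while it folds, and the proteins join in stages. UtpA binds the 5′ external transcribed spacer first, UtpB and the U3 snoRNP follow, and the Mpp10 complex, the Nop14 proteins, the Bms1 GTPase with Rcl1 and many single factors come later or bind the maturing domains of 18S rRNA. In yeast these genes are known to belong to the ribosome biogenesis regulon, whose promoters often carry 2 short elements, PAC and RRPE. PAC is recognised by the repressors Dot6 and Tod6, and RRPE by Stb3.

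The letters searched for were GATGAG for the PAC core and AAAAATTT for the RRPE core, on both strands, in the 300 bases before each start codon of the R64 genome. Stretches are printed here for the 3 factors with the largest and the 3 with the lowest fold change, since both kinds carried both elements. Each runs 5′ to 3′ on the strand of its gene, and capitals mark the PAC core (GATGAG, or CTCATC where it lies on the other strand) and the RRPE core (AAAAATTT, or AAATTTTT on the other strand).
SAS10 (chrIV:183080-183166, minus strand): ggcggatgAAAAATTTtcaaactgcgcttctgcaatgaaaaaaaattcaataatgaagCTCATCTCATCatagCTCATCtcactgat
RCL1 (chrXV:307791-307849, plus strand): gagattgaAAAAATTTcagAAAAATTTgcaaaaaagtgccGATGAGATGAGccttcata
KRR1 (chrIII:23440-23524, minus strand): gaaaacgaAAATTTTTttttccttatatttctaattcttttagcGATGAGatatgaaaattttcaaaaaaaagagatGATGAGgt
SNU13 (chrV:101662-101776, plus strand): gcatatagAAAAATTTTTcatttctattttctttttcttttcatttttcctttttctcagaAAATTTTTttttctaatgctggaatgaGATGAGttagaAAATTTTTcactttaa
UTP9 (chrVIII:491758-491835, plus strand): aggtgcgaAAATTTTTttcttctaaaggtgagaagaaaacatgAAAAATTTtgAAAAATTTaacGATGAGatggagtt
NOP1 (chrIV:427111-427173, plus strand): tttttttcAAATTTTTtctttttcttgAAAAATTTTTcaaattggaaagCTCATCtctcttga

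A PAC core was found before 32 of the 37 genes (86.5%), against 18.8% of the 5905 promoters read, the members included. An RRPE core was found before 31 (83.8%), against 15.3% of all promoters. Both lay before 28 of 37 members (75.7%) and before 5.67% of all promoters. Matches were counted wherever they began: PAC cores could share a base with each other and RRPE cores could overlap on opposite strands, as in SNU13 and NOP1. EMG1 and UTP22 had neither core in this window. A match describes these letters and not the binding of a factor.

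Positions are shown in the map of both elements. The median PAC core stood 106.5 bases and the median RRPE core 131.5 bases before the start codon. In NOP1 and SNU13 all matches lay beyond 160 bases. The 28 members with both cores included 17 with higher transcript levels after thiolutin and 2 with lower levels, with a median log2 fold change of 0.76. Among all 334 tested coding genes with both cores, 150 were higher and 59 lower, with a median of 0.35. Among the 4158 with neither core, 1229 were higher and 1460 lower, with a median of -0.095. The members are part of these counts.

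**Figure D1:**
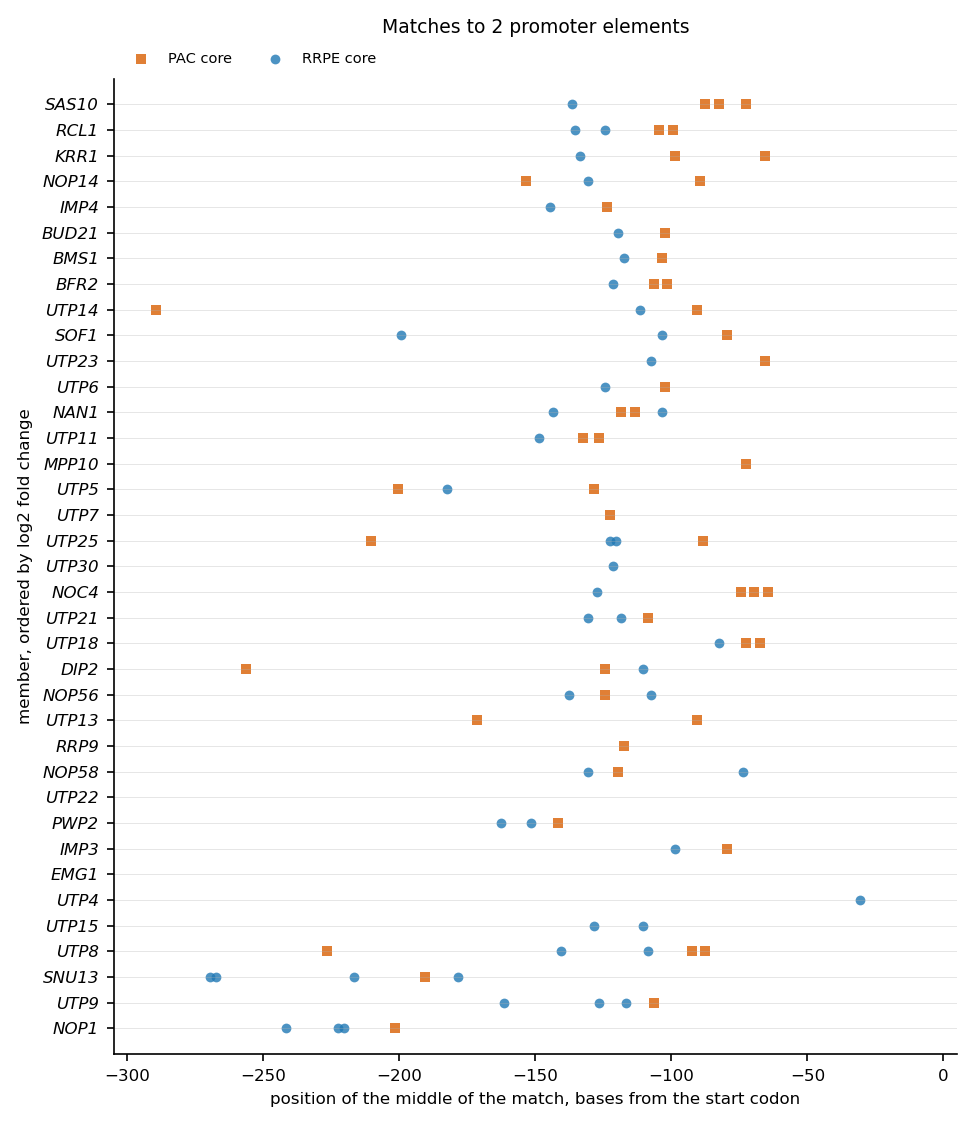
Matches to the PAC core (orange squares) and the RRPE core (blue circles) before each of the 37 genes, plotted by the middle of the match in bases from the start codon. Genes run from SAS10, the largest log2 fold change, at the top to NOP1, the lowest, at the bottom, and 35 of 37 carry at least 1 match.

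Before the groups are compared, the libraries themselves need description. Reads in genes numbered 17038991 and 21440741 in the thiolutin libraries and 30205335 and 29962621 in the untreated ones. The share of those reads that fell in the 37 genes was 0.334% (95% exact binomial interval 0.332 to 0.337) and 0.339% (0.336 to 0.341) with thiolutin, against 0.311% (0.309 to 0.313) and 0.433% (0.431 to 0.436) in untreated cells. Both thiolutin shares therefore lay between the 2 untreated ones. Such intervals cover counting error only. The 20 most counted genes took 32.1% and 31.6% of thiolutin reads, against 17.2% and 15.3% of untreated reads, so levels depend on how libraries are scaled. Levels below are in CPM, the usual count per library size, after TMM scaling, which leaves out genes with extreme values. Where total counts are named, no such correction was made. STE2, the pheromone receptor of mating type a, had 152 and 144 CPM with thiolutin and 632 and 553 CPM without. The a pheromone genes MFA1 and MFA2 ranged from 181 to 357 CPM and from 116 to 510 CPM over the 4 libraries. MF(ALPHA)1, an alpha pheromone gene, stayed at or under 1.15 CPM in all 4 libraries. The alpha genes MF(ALPHA)2 and STE3 ranged from 3.36 to 6.39 CPM and from 3.04 to 5.59 CPM.

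The untreated libraries differed from each other across the whole set. All 37 members were higher in untreated replicate 2 than in untreated replicate 1, where 48.8% of all tested genes were. The median log2 difference between the 2 was 0.44 for the members, with a range of 0.092 for RCL1 to 0.68, and -0.0063 for all genes. In the thiolutin pair, 23 of 37 members were higher in replicate 2, against 55.6% of all genes, and the median log2 difference was 0.013. Other genes of the pathway varied in this. Higher in untreated replicate 2 were 55 of 57 factors of the large subunit, 19 of 19 RNA helicases and 10 of 10 genes of RNA polymerase I with RRN3. Their median log2 differences were 0.46, 0.51 and 0.39. Further processome factors had 21 of 23 higher there (median 0.30). Late small subunit factors (11 of 15, median 0.22), regulators (12 of 15, 0.20), small ribosomal subunit proteins (50 of 56, 0.19) and snoRNP assembly genes (9 of 14, 0.11) shifted less. Neither of the 2 U3 RNA genes was higher in untreated replicate 2 (0 of 2, median -0.93). What set the untreated cultures apart was not tested. The main counts are therefore also given without each untreated library.

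**Figure D2:**
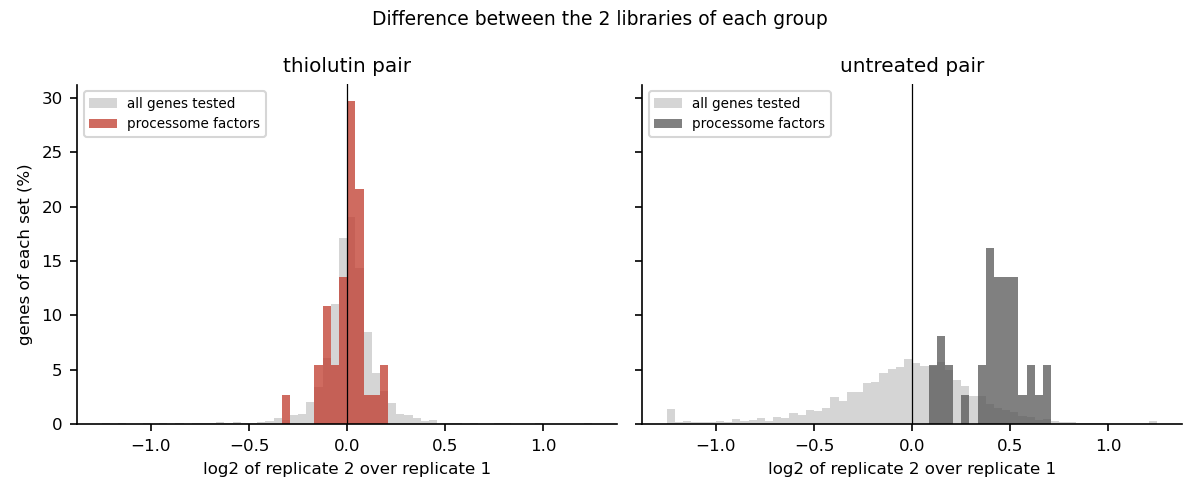
Distribution of the log2 difference between replicate 2 and replicate 1 within the thiolutin pair (left) and the untreated pair (right), as a percentage of all 5937 tested genes (grey behind) and of the 37 members (coloured). Differences beyond the axis were drawn at its edge. All 37 members lie above 0 in the untreated pair, and they straddle 0 in the thiolutin pair.

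Of the 37 members, 20 were higher in thiolutin-treated than in untreated cells at an adjusted p under 0.05, 2 were lower (NOP1 and UTP9), and 15 did not pass. RNA of whole cultures gives each transcript's share of the RNA read, in which fewer cells with a transcript and less of it per cell cannot be told apart. The calls amount to 54.1% higher and 5.41% lower, against 31.2% and 32.4% of all genes tested, of which 63.6% passed in either direction. The median log2 fold change of the members was 0.63, against -0.041 for all genes, and 29 of 37 had a positive value. 8 members were higher by a log2 of at least 1 and 0 were lower by as much, a size that 15.7% and 10.3% of all genes reached in each direction.
Both thiolutin libraries lay above both untreated libraries for 25 members and below them for 5, and for 7 the groups overlapped. Of all genes, 40.8% and 43.9% were separated in these directions. With 2 libraries per group an exact permutation test of a single gene cannot go below p = 0.333, so calls rest on the spread that edgeR estimated across genes.

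Without untreated replicate 1, 22 members were higher and 9 lower, and without untreated replicate 2, 29 were higher and 3 lower. Over all genes these fits called 40.9% and 41% higher and 42.4% and 43.3% lower, more than with all 4 libraries. In both of these fits the spread came from the thiolutin pair alone, whose coefficient of variation was 2.28%, against 16.7% in the untreated pair. Without thiolutin replicate 1 or replicate 2, 13 and 12 members were higher and 0 were lower in either, where an unadjusted p under 0.05 from edgeR gave 18 and 19 higher and 1 lower in each. These fits called 19.6% and 19.5% of all genes higher and 14.9% and 15.8% lower. Over the 4 fits with 1 library left out, 7 members changed sign in at least 1: IMP3, NOP58, RRP9, UTP22, PWP2, EMG1 and UTP4.
The scale mattered more. With total counts as the scale the median over all genes was -0.63 (log2), 9 members were higher and 11 lower, where 16.3% of all genes tested were higher and 60.7% lower. The members' median was then 0.040. A change of scale shifts every gene together, so that the members' median stood above that of all genes on both scales was fixed in advance. The calls of MPP10, NAN1, SOF1, UTP5, UTP6, UTP7, UTP11, UTP14, UTP25 and UTP30 were lost on that scale with the same sign, and NOC4 turned to -0.21. The lower calls gained there were UTP4, UTP8, UTP15, PWP2, SNU13, NOP58, RRP9, IMP3 and EMG1.

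**Figure D3:**
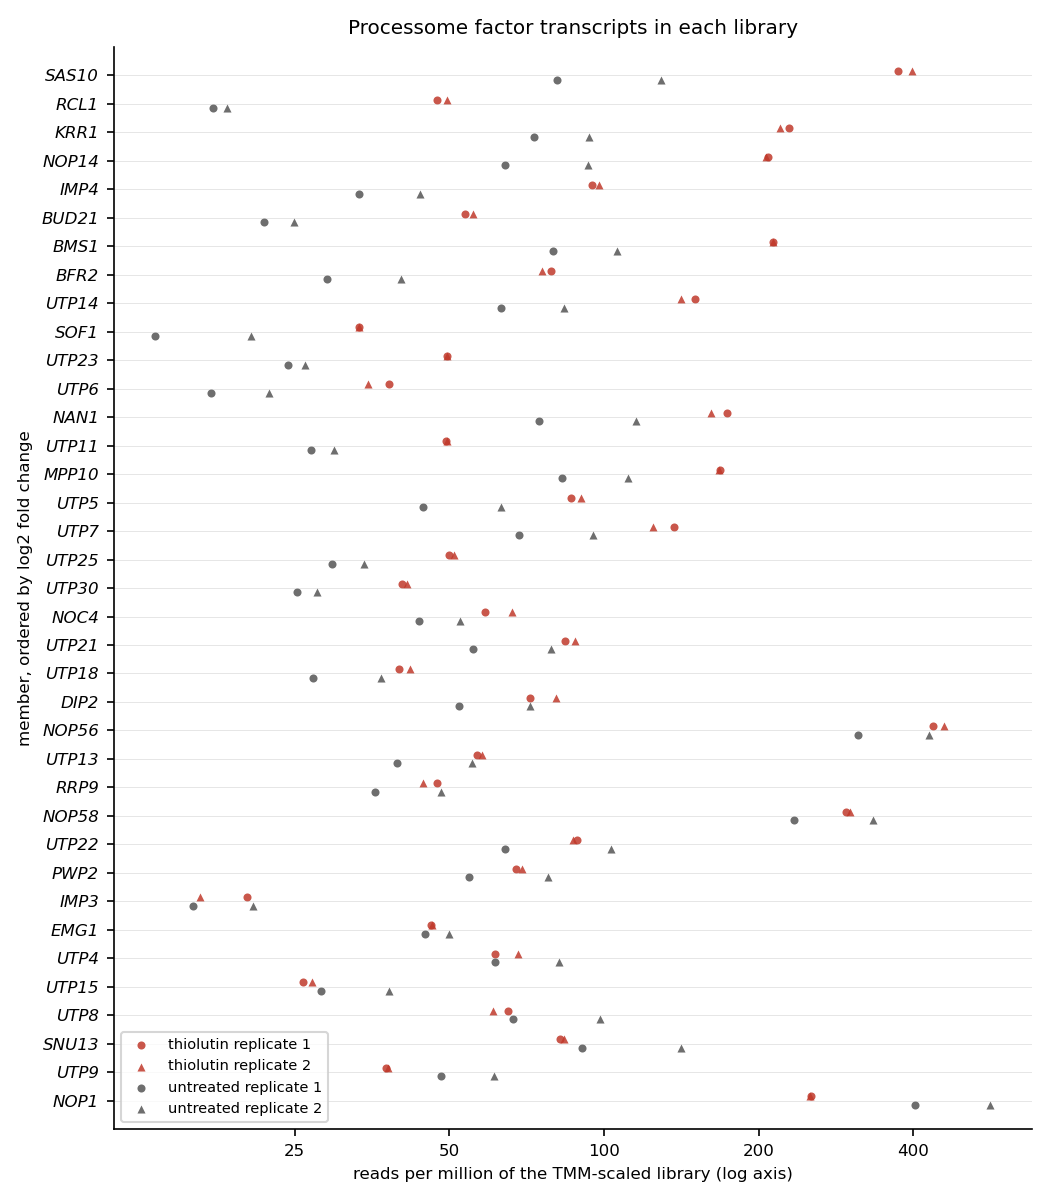
CPM on the TMM scale (log axis) of each of the 37 members in the 2 thiolutin libraries (red) and the 2 untreated libraries (grey), with circles for replicate 1 and triangles for replicate 2. Genes run from SAS10 at the top to NOP1 at the bottom, the thiolutin points of a gene lie close together, and in every gene the grey triangle is to the right of the grey circle.

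The factors did not move as 1 block. Of the 17 members of UtpA (without UTP10), UtpB and the U3 snoRNP, 3 were higher and 2 lower, with a median log2 fold change of 0.13. Of the other 20, 17 were higher and 0 lower, with a median of 0.97. Over all genes tested the shares were 31.2% higher and 32.4% lower. Among those 20 an unadjusted p under 0.05 from edgeR also gave 0 lower, as did DESeq2. The lowest log2 fold change of the 20 was only -0.036 (EMG1), so these 2 checks add no support to the split. On the scale of total counts 9 of the 20 were higher and 2 lower, EMG1 (-0.62) and IMP3 (-0.59). Of the 17, 0 were higher and 9 lower on that scale, where 16.3% of all genes tested were higher and 60.7% lower. Without untreated replicate 1 the median was -0.065 for the 17 and 0.77 for the 20, with UTP22 at -0.22. Without untreated replicate 2 it was 0.36 for the 17 and 1.12 for the 20, so the level of both sets depended on the untreated library kept. This split was made after the values were seen and was not tested. The groups of the particle are taken in turn, and their calls stand beside the 31.2% higher and 32.4% lower of all genes tested. Each log2 fold change is thiolutin over untreated. Its standard error (SE) was derived from the test, as the size of the log2 fold change over the square root of edgeR's F statistic.

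Among the 6 UtpA genes of the set, which leaves out UTP10, NAN1 and UTP5 were higher, UTP9 was lower, and the median log2 fold change was -0.23. The share that was higher, 33.3%, was close to the 31.2% of all genes tested. NAN1, a WD-repeat protein also called Utp17, had 173 and 161 CPM with thiolutin and 74.7 and 115 CPM without, a log2 fold change of 0.82 (SE 0.217, adjusted p = 0.0233). UTP5 had 86.2 and 90.2 CPM with thiolutin and 44.4 and 63.0 CPM in untreated cells (log2 0.71). Both pairs were separated for these 2 genes. UTP9 (YHR196W, chrVIII:491931-493658) went the other way, with 37.6 and 37.9 CPM with thiolutin against 48.1 and 60.9 CPM without. Its log2 fold change was -0.53 (SE 0.139, adjusted p = 0.0225), and the adjusted p was 0.127 and 0.124 without thiolutin replicate 1 or 2. UTP8, which also serves tRNA export, had 65.0 and 60.7 CPM with thiolutin and 66.6 and 98.0 CPM without (log2 -0.39). UTP15 had 25.9 and 27.0 CPM with thiolutin and 28.1 and 38.1 CPM without (log2 -0.32). These 2 genes were separated between the groups but did not pass the test, and UTP4, at 61.4 and 67.9 CPM with thiolutin and 61.4 and 81.5 CPM in untreated cells, overlapped. UTP8 (log2 -0.98, adjusted p = 0.0066), UTP15 (-0.91, 0.0051) and UTP4 (-0.73, 0.0090) were called lower with total counts as the scale. UTP10, the remaining UtpA subunit, had 149 and 151 CPM with thiolutin and 54.1 and 83.4 CPM without (log2 1.13, adjusted p = 0.0077), a larger log2 fold change than any UtpA gene of the set. Of the 7 UtpA genes with UTP10 counted, 3 were higher and 1 lower, 4 had a negative log2 fold change, and the median was -0.14.

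UtpB is a complex of 6 proteins, most of them with WD repeats. All 6 of its genes had a positive log2 fold change with TMM, but only UTP6 passed, and the median was 0.33. With total counts as the scale UTP6 alone stayed positive, at 0.29. UTP6, a protein of helical repeats, had 38.2 and 34.7 CPM with thiolutin and 17.2 and 22.3 CPM without, a log2 fold change of 0.88 (SE 0.16, adjusted p = 0.00654). Both thiolutin libraries lay above both untreated ones. The 4 genes next in line had log2 fold changes close together: 0.36 for UTP21, 0.36 for UTP18, 0.30 for DIP2 and 0.27 for UTP13. In each of them both thiolutin libraries lay above both untreated ones, though by little in the case of replicate 2: UTP13 had 56.5 and 57.8 CPM with thiolutin, against 39.5 and 55.3 CPM without. PWP2, at 67.3 and 69.1 CPM with thiolutin and 54.6 and 77.6 CPM without, lay inside the untreated range (log2 0.045). UTP13 is also the neighbour of IFH1, a coactivator of ribosomal protein genes on the same strand, whose log2 fold change was 1.55.

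None of the 5 U3 snoRNP proteins was called higher, 1 was lower, and the median log2 fold change was 0.075. NOP1 (YDL014W, chrIV:427364-428347), the yeast fibrillarin that methylates ribosomal RNA, had 253 and 251 CPM with thiolutin and 403 and 564 CPM in untreated cells. Its log2 fold change of -0.94 (SE 0.177, adjusted p = 0.00736) was the lowest of all members, and the adjusted p was 0.0599 and 0.0604 without thiolutin replicate 1 or 2. SNU13 (YEL026W, chrV:101943-102323), which binds the kink-turn of the snoRNA and is shared with the spliceosome, had 82.1 and 83.5 CPM with thiolutin and 90.6 and 141 CPM without (log2 -0.49, adjusted p = 0.106). Its adjusted p was 0.0254 with limma voom and weights by group. The scaffold proteins of the same particle did not pass the test. NOP56 had 436 and 459 CPM with thiolutin and 311 and 429 CPM without (log2 0.27), and NOP58 had 296 and 301 CPM with thiolutin and 234 and 333 CPM without (log2 0.075). RRP9, the protein found only in U3 particles, had 47.2 and 44.4 CPM with thiolutin and 35.8 and 48.1 CPM without (log2 0.13). The last 2 overlapped between the groups, and leaving out untreated replicate 1 or 2 gave opposite signs, -0.15 and 0.36 for NOP58 and -0.065 and 0.36 for RRP9. With total counts as the scale NOP56, NOP58 and RRP9 were at -0.32, -0.52 and -0.46.
The U3 RNA genes themselves, SNR17A and SNR17B, had 25.6 and 21.6 CPM and 8.37 and 7.70 CPM with thiolutin, against 7.35 and 3.12 CPM and 1.41 and 0.92 CPM without. Mature U3 carries no poly(A) tail, so libraries selected for one do not measure its amount.

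The Mpp10 complex, which holds Imp3 and Imp4 at the U3 duplex with the precursor, had 3 of its 4 genes higher, with SAS10 counted among them here, and a median log2 fold change of 1.05. SAS10 (YDL153C, chrIV:181186-183018), also called Utp3, had the largest change of all 37: 374 and 398 CPM with thiolutin against 81.0 and 129 CPM without. The log2 fold change was 1.88 (SE 0.235, adjusted p = 0.00193), or 3.68 times the untreated mean. IMP4 had 94.6 and 97.7 CPM with thiolutin and 33.4 and 43.9 CPM without (log2 1.32), and MPP10 had 168 and 167 CPM with thiolutin and 82.8 and 111 CPM without (log2 0.79). IMP3 differed from its partners. With 20.2 and 16.4 CPM in thiolutin cells and 15.9 and 20.7 CPM in untreated cells, its groups overlapped, and its log2 fold change was -0.0023. Its direction turned with several settings, and with total counts as the scale it was called lower (-0.59, adjusted p = 0.033). IMP4 lies beside MKS1, which had a log2 fold change of 1.30.

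SAS10 and NOP1, the ends of the ranking, can be set against each other within a library, which needs no scaling between libraries. SAS10 had 1.48 and 1.59 reads for each read of NOP1 with thiolutin, against 0.201 and 0.228 in untreated cells. Per kilobase of gene the ratios were 0.794 and 0.851 with thiolutin and 0.108 and 0.123 without. The 2 genes were picked by their fold changes, so this ratio is a description.

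**Figure D4:**
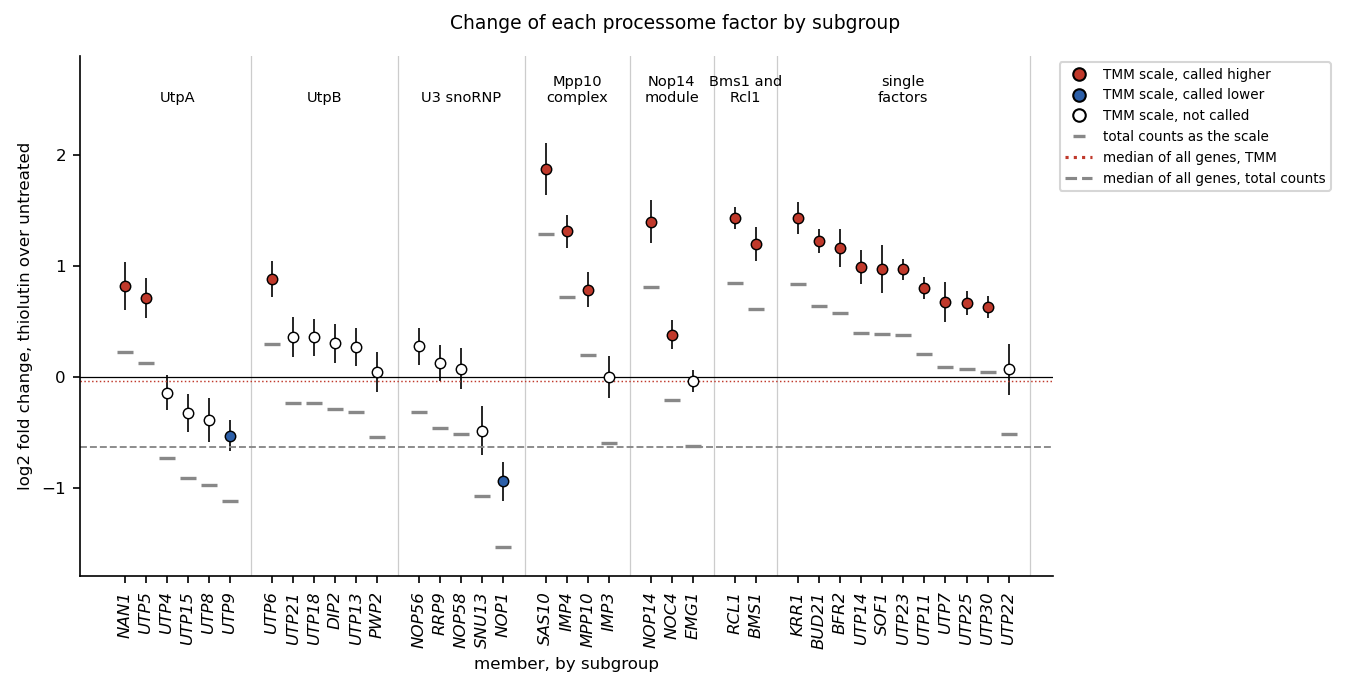
Log2 fold change, thiolutin over untreated, of each member by subgroup. Circles give the TMM scale (red where called higher, blue where called lower, open where not called), with bars for the SE derived from the test. Grey dashes give the values with total counts as the scale. The dotted and dashed lines are the medians of all genes on the 2 scales, -0.041 and -0.63, and both NOP1 and UTP9 lie below both zero and the median of all genes.

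The proteins around Nop14 split in the same manner as the Mpp10 complex. NOP14 averaged 208 ± 1.70 CPM with thiolutin and 78.6 ± 20.6 CPM without (mean ± SD, n = 2 each), a log2 fold change of 1.40 (SE 0.193, adjusted p = 0.00259). Its partner NOC4 had 58.6 and 66.3 CPM with thiolutin and 43.5 and 52.4 CPM without (log2 0.38), and the adjusted p of 0.0492 became 0.0577 with no filter on low counts. EMG1, which methylates a pseudouridine of 18S rRNA, had 46.1 and 46.2 CPM with thiolutin and 44.7 and 49.9 CPM without (log2 -0.036). Its groups overlapped within a narrow range.

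BMS1 and RCL1 encode a GTPase and the protein it carries into the particle, annotated as an endoribonuclease. Both were higher. RCL1 (YOL010W, chrXV:307938-309041) had 47.3 and 49.5 CPM with thiolutin and 17.3 and 18.5 CPM without, with a log2 fold change of 1.44 (SE 0.10, adjusted p = 0.000391). BMS1 had 213 and 214 CPM with thiolutin and 79.7 and 106 CPM without (log2 1.20). Of all members RCL1 had the untreated libraries closest to each other and the lowest adjusted p.

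Of the 11 factors that belong to none of these complexes, 10 were higher and 0 lower, where 31.2% and 32.4% of all genes tested were. KRR1 (YCL059C, chrIII:22429-23379), an RNA-binding protein of the KH family, had 229 and 220 CPM with thiolutin and 72.9 and 93.6 CPM without (log2 1.43, SE 0.145, adjusted p = 0.00102). BUD21, at 53.6 and 55.6 CPM with thiolutin and 21.8 and 24.9 CPM without, and BFR2, at 78.8 and 75.8 CPM with thiolutin and 28.8 and 40.2 CPM without, had log2 fold changes of 1.23 and 1.16. These 3 were the single factors with more than a doubling. UTP14, which activates the helicase Dhr1, had 150 and 141 CPM with thiolutin and 63.0 and 83.4 CPM without (log2 0.99). SOF1, at 33.3 and 33.3 CPM with thiolutin and 13.4 and 20.5 CPM without, and UTP23, a PIN-domain protein at 49.4 and 49.5 CPM with thiolutin and 24.3 and 26.1 CPM without, both had 0.97. In each of these genes both thiolutin libraries lay above both untreated ones.
UTP11 had 49.1 and 49.5 CPM with thiolutin and 26.9 and 29.8 CPM without (log2 0.80), and UTP7 had 137 and 125 CPM with thiolutin and 68.4 and 95.2 CPM without (log2 0.68). UTP25 had 49.9 and 51.0 CPM with thiolutin and 29.5 and 34.1 CPM without (log2 0.66), and UTP30 had 40.3 and 41.3 CPM with thiolutin and 25.2 and 27.6 CPM without (log2 0.63). The exception was UTP22, a protein of the UtpC complex, at 88.6 and 87.0 CPM with thiolutin and 64.1 and 103 CPM without (log2 0.071). Its thiolutin values lay between the untreated ones, and its direction was -0.22 without untreated replicate 1 and 0.46 without untreated replicate 2.

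Some of these calls depended on a thiolutin library. The calls of MPP10, NAN1, NOC4, NOP1, SOF1, UTP30, UTP5, UTP7 and UTP9 were lost without either thiolutin library, and that of UTP25 without thiolutin replicate 2 (adjusted p = 0.0557). Without thiolutin replicate 1 or 2 the log2 fold change was 0.46 and 0.29 for NOC4, 0.76 and 0.87 for NAN1, 0.61 and 0.74 for UTP7 and 0.74 and 0.68 for UTP5. MPP10 (0.78 and 0.79) and SOF1 (0.97 and 0.98) moved less. In those fits the spread came from the untreated pair.

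The make-up of the members' pooled reads differed between the groups, and this measure too needs no scale between libraries. The 5 U3 snoRNP proteins took 27.1% and 27.5% of all member reads with thiolutin, against 42.2% and 43.1% in untreated cells. NOP1 alone took 6.15% and 6.06% with thiolutin and 15.85% and 16.04% without. Shares of one total move against each other, so a smaller share need not mean a lower level. NOP56 took 10.61% and 11.07% with thiolutin and 12.23% and 12.19% without, though its log2 fold change on the TMM scale was 0.27. The Mpp10 complex took 15.97% and 16.38% with thiolutin, against 8.37% and 8.66% in untreated cells, and SAS10 alone 9.09% and 9.60% against 3.18% and 3.66%. Single factors took 23.3% and 22.4% with thiolutin and 17.2% and 16.4% without, and UtpA took 10.9% and 10.7% with thiolutin and 12.7% and 13.0% without. The exact binomial intervals reached at most 0.365 percentage points to either side. Untreated replicates 1 and 2, which differed in the level of every member, were within 0.85 points of each other in each of these shares, and the thiolutin libraries were apart from both. No test is given, since an exact permutation test of 2 against 2 libraries cannot go below p = 0.333.

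**Figure D5:**
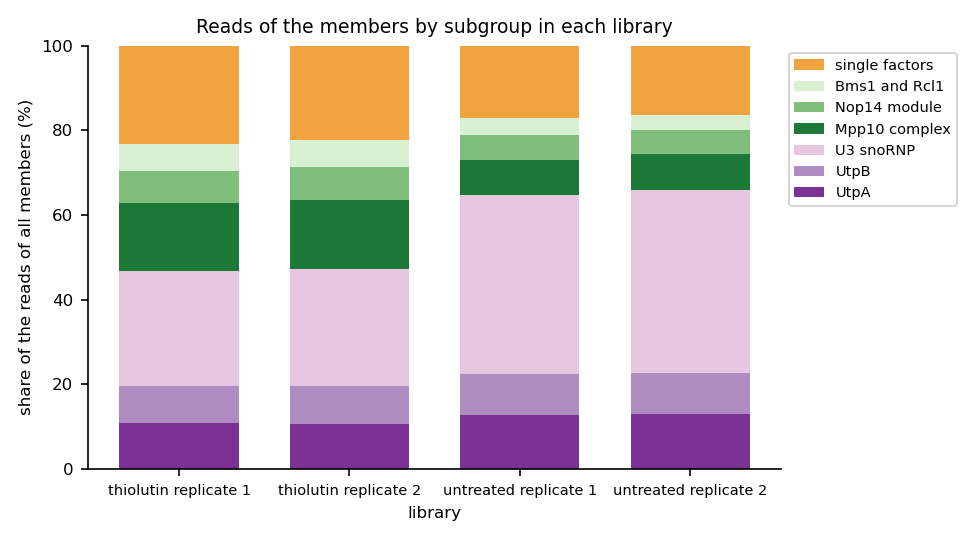
Share of the reads of all 37 members (percent, bars from 0 to 100) that each subgroup took in the 2 thiolutin and the 2 untreated libraries. The U3 snoRNP takes 27.1% and 27.5% in the thiolutin bars and 42.2% and 43.1% in the untreated bars, while the Mpp10 complex takes 15.97% and 16.38% against 8.37% and 8.66%.

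Levels per kilobase of gene compare the members with each other. With thiolutin they ranged from 17.2 CPM per kilobase for UTP15 to 295 for NOP56, a ratio of 17.2, and in untreated cells from 11.5 for SOF1 to 492 for NOP1, a ratio of 42.6. The medians were 48.2 with thiolutin and 31.5 without. Proteins of every box C/D particle, not only of U3, stood at the untreated top: NOP1, SNU13 at 304, NOP56 at 244 and NOP58 at 185, with KRR1 next at 87.5. With thiolutin KRR1 reached 236 and SAS10 211, beside NOP1 at 256, SNU13 at 217 and NOP58 at 194. NOP1, first in untreated cells, was thus second to NOP56 with thiolutin.

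On the chromosomes the 37 genes are scattered over 13 of them. Each has 1 coding exon, from 381 bp for SNU13 to 3714 bp for UTP22, and 0 overlap another gene of the RefSeq annotation of R64. 2 of the members that were higher lie beside a gene with a larger increase. BUD21 ends 105 bp from ATX2, transcribed towards it (log2 1.30), and NOC4 ends 689 bp from RRP15 (log2 1.13), itself a ribosome assembly gene. UTP9 lies beside NVJ1, which was lower (log2 -0.72), and upstream of RIX1, which was higher (log2 1.03). Whether reads of a neighbour entered these counts was not tested, and use of the strand in counting is not given in the sources used here.

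Other genes of the pathway are given from lists written from textbook knowledge. Their counts stand beside 31.2% of all genes tested that were higher and 32.4% that were lower. Among 23 further processome factors 16 were higher and 2 lower, around a median of 0.67. ESF1 (log2 2.15), RRP36 (1.53) and ENP2, close behind, led, and the lower ones were CKA2 (-0.41) and CKB2 (-0.45), subunits of casein kinase 2, which works in much else besides. The UTP genes outside the set, UTP20 (1.43) and UTP10, were both higher. Of 19 RNA helicases of ribosome assembly, 13 were higher and 0 lower, with a median of 0.89. The helicase Dbp4, named HCA4 in the annotation, had 885 and 893 CPM with thiolutin and 37.8 and 53.0 CPM without (log2 4.29). ECM16, the Dhr1 that Utp14 activates, had a log2 fold change of 2.51 and MTR4, the helicase of the nuclear exosome, 1.99. None of these 3 is a member, and the value of DBP4 exceeded that of every one of the 37. Neighbouring genes were looked up for members only, and whether reads of a neighbour entered these 3 counts was not tested.

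Later steps were similar. Of 15 late factors of the small subunit, 8 were higher and 1 lower (median 0.42), led by RIO2 (1.98), LTV1 (1.90) and NOB1 (1.33). Of 57 assembly factors of the large subunit, 40 were higher and 0 lower (median 0.69), with NOP53 (2.29), NOP8 (1.97) and NOP15 (1.70) at the top. Fewer of the genes that assemble snoRNP particles passed, 5 of 14 higher and 0 lower, with a median of 0.17, and NAF1 (1.67) and BCD1 (1.06) led them. RNA polymerase I and RRN3 had 1 of 10 higher, RPA190 (0.89), and 2 lower, RPA14 (-0.88) and RPA12 (-0.53). The 56 proteins of the small ribosomal subunit had 12 higher (21.4%) and 14 lower (25%), and a median of -0.035. Both shares were below the 31.2% and 32.4% of all genes tested. RPS20 (1.49), RPS31 (1.31) and RPS23A (1.07) had the largest changes. In the 3 lists with 0 lower (helicases, large subunit factors and snoRNP assembly) edgeR at an unadjusted p under 0.05 and DESeq2 also gave 0.

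Regulators of ribosome production were mostly lower: 9 of the 15 listed, with 2 higher and a median of -0.34. This list is wider than the factors of PAC and RRPE, and includes TOR1, SCH9 and IFH1, the coactivator of ribosomal protein genes. SFP1, an activator of ribosome biogenesis genes, had 39.1 and 35.4 CPM with thiolutin and 76.4 and 78.4 CPM without (log2 -1.06). Of the repressors that bind PAC, DOT6 was lower at 228 and 235 CPM with thiolutin against 427 and 419 CPM without (log2 -0.87), and TOD6 was higher (log2 1.06). STB3, whose protein binds RRPE, was lower at 70.2 and 77.1 CPM with thiolutin against 124 and 111 CPM without (log2 -0.68). Of these 3 repressors 2 were thus lower and 1 higher. IFH1 was the other gene that was higher (log2 1.55). With total counts as the scale, 7 of the 23 further processome factors were higher and 6 lower. Of the 57 large subunit factors 16 were higher and 5 lower, and of the 15 regulators 13 were lower. On that scale 16.3% of all genes tested were higher and 60.7% lower. No list was tested against the members or against another list.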

How the data were processed

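RNA of thiolutin-treated and untreated BY4741 yeast was sequenced from both ends after poly(A) selection, and 2 libraries per group were analysed. The authors deposited raw counts of reads per gene on build R64, with no normalization. How reads were aligned and counted, and with which versions, is not stated in the sources used here. The same deposited table holds the authors' DESeq2 comparison (fold changes, p-values) and 4 columns of normalized values, none of which were used, and 3 of its lines held no gene.

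Members and lists were chosen with earlier results of these data known. Replicates are labelled biological, and p-values rest on the spread between these libraries. In edgeR it was estimated per gene over both groups together, with information from all genes. The coefficient of variation was 2.28% in the thiolutin pair and 16.7% in the untreated pair. Counts of all 6209 genes were filtered with filterByExpr, scaled by TMM and compared in edgeR 4.0.16 (quasi-likelihood test), with Benjamini-Hochberg adjustment over the 5937 genes kept and calls at an adjusted p under 0.05. Biological variation came to a coefficient of 12.2%. The procedure was tested on simulated data. All members could be named, with values in every library for the 3 highest, the 3 lowest, the U3 snoRNP and those whose call or direction depended on a library, and up to 3 genes of each other list, 9 lists with 211 symbols. Genes named beyond 3 of a list were chosen after their values were seen. Alternatives were RLE factors, total counts, DESeq2 1.42.0, limma 3.58.1 voom with weights by group, no filter, leaving out each library, the replicate number as a block, an adjusted p under 0.01, and members beside a gene changed by a log2 of at least 3 left out. Gene positions came from the RefSeq annotation of R64 and matched the ends in the table for all 37 members. R 4.3.3, Python 3.11.15 and matplotlib were used.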

Additional observations from a re-analysis of the deposited data

How the results depend on the processing

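With total counts as the scale, 9 members were called higher, 11 lower, 1 higher by a log2 of at least 1 and 3 lower by as much, against 20, 2, 8 and 0 with TMM. The median was then 0.040, and over all genes 965 were higher and 3605 lower, against 1850 and 1924. On that scale DIP2 turned to -0.29, NOC4 to -0.21, NOP56 to -0.32, NOP58 to -0.52, PWP2 to -0.54, RRP9 to -0.46, UTP13 to -0.32, UTP18 to -0.23, UTP21 to -0.23 and UTP22 to -0.52, since every gene shifts down together. Leaving out each library in turn gave 12 to 29 members higher, 0 to 9 lower, 7 to 14 higher by at least 1, 0 to 1 lower by as much, and medians of 0.46 to 0.70. Over all genes it gave 1163 to 2437 higher and 893 to 2572 lower. Without untreated replicate 1 or 2, NOP58 was at -0.15 and 0.36, PWP2 at -0.18 and 0.33, RRP9 at -0.065 and 0.36, UTP22 at -0.22 and 0.46, EMG1 at -0.10 and 0.049, and UTP4 at -0.32 and 0.083. The range for IMP3 over the libraries left out was -0.18 to 0.20. IMP3, at -0.0023 with TMM, was at 0.026 with RLE factors, 0.027 with DESeq2, 0.15 without thiolutin replicate 2 and -0.59, called lower, with total counts. At an adjusted p under 0.01, 15 members were higher and 1 lower. The counts with RLE factors and with DESeq2 were 20 and 2, with limma voom 21 and 3, and with no filter 19 and 2. Of all genes these settings called 32.2%, 31.8%, 31.6% and 29.2% higher and 31.2%, 30.6%, 33.5% and 31.1% lower, in that order. No member lay beside a gene changed by a log2 of at least 3, so leaving such members out changed no count. With the extended letters, a PAC match was found before 20 members in place of 32, and an RRPE match before 19 in place of 31.

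The labels give the samples no pairing beyond a shared replicate number. The deviations of libraries with the same number had a correlation of 0.0337 across 5937 genes. This value cannot decide whether cultures were paired, since the thiolutin libraries differed little (coefficient of variation 2.28%). With the replicate number as a block, 22 members were higher and 4 lower (31.9% and 33% of all genes), UTP21, UTP18, UTP8 and SNU13 being added to the calls, the median was 0.63 and IMP3 was at 0.0029.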
